A study of Homo sapiens with 16 samples.

Results

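Hs606T, a cell line from ATCC that the submitters label as breast cancer and describe as poorly invasive, was compared after transfection with a siRNA against RECK and after transfection with a scrambled siRNA. The comparison took every array titled for these conditions, 2 labelled siRECK and 2 labelled siSCR, 4 of the 16 arrays of the series. The same pair of transfections was made in a second poorly invasive line, Hs343T, again with 2 arrays labelled siRECK and 2 labelled siSCR, and those arrays are used here to set the size of the Hs606T values. The other 8 arrays, of the invasive lines MDAMB231 and LM24175 carrying a RECK construct or an empty vector, entered only the common estimate of the spread. The siRNA sequences and the time between transfection and RNA extraction were not analysed here. Whether paired arrays of a condition stem from different cultures is not stated in the labels, and the p-values therefore reflect the scatter of these particular arrays, possibly no more than technical scatter.

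RECK is a membrane-anchored glycoprotein that inhibits matrix metalloproteinases, the enzymes that cut collagen and other matrix proteins, and with ADGRA2 it forms the receptor complex for WNT7 ligands. A siRNA is a short RNA duplex that directs the RNA interference machinery to a matching transcript. Cells also carry sensors of foreign RNA, among them RIGI and IFIH1, whose signal through MAVS, IRF3 and NF-kB switches on interferon beta. Secreted type I interferon acts through its receptor on a transcription factor complex that contains IRF9 and binds a DNA motif called the interferon-stimulated response element in front of genes for antiviral proteins such as the IFIT, OAS and MX families. NF-kB binds a different motif and drives inflammatory cytokines, among them the CXC chemokines that attract neutrophils.

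Many of the genes that moved most on these arrays belonged to these 2 programmes, interferon-induced genes upward and neutrophil-attracting chemokines downward, and the stretches in front of some of them show the letters searched for. The 250 bases before the RefSeq start (GRCh38.p14) are printed 5′ to 3′ on the strand of the gene, with motif matches in capitals. They lie at chr10:89392373-89392622 (plus strand) for IFIT1, chr2:6877527-6877776 (plus) for the second of 2 RefSeq starts of RSAD2, chr4:73869143-73869392 (plus) for CXCL1, chr4:74038690-74038939 (minus) for CXCL3, chr4:73998678-73998927 (minus) for CXCL5 and chr9:36036663-36036912 (plus) for RECK.
IFIT1: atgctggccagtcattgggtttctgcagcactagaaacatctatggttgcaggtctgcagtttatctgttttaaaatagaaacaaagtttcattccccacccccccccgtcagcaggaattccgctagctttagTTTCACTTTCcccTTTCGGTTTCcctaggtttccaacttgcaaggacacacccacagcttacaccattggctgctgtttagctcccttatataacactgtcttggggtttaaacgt
RSAD2: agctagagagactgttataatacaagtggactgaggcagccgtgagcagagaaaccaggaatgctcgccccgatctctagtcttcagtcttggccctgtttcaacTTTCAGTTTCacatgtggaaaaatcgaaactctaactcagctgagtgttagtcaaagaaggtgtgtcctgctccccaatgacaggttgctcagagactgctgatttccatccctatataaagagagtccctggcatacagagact
CXCL1: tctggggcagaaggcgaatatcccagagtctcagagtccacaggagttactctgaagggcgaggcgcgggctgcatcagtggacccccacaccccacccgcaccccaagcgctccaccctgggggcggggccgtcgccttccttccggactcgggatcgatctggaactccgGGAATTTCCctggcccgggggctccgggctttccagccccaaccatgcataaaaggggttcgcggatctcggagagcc
CXCL3: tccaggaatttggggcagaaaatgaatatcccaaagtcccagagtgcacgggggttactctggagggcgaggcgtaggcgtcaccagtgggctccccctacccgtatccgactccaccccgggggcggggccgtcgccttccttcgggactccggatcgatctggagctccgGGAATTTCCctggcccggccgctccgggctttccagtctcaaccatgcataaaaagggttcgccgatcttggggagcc
CXCL5: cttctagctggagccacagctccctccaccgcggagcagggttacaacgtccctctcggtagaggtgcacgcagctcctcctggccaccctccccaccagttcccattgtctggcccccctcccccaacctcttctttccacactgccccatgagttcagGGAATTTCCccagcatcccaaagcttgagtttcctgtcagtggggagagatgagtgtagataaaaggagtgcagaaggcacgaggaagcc
RECK: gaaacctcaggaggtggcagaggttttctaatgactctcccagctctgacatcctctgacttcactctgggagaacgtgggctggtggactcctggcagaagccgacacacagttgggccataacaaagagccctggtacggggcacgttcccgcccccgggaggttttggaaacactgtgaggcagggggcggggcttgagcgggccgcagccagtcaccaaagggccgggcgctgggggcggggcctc
The interferon-stimulated response element was searched on both strands as GAAA, any 2 bases, GAAA, which reads TTTC, any 2 bases, TTTC on the other strand. The NF-kB motif was searched as GGAA, any base, TTCC, which reads the same on both strands. The window searched ran from 250 bases before to 50 bases after the start. IFIT1 held 2 matches of the interferon motif, whose first bases lie 116 and 103 bases before the start, and RSAD2 held 1, at 145 bases before. CXCL1 and CXCL3 each held an NF-kB match 78 bases before the start and CXCL5 one 90 bases before it. The RECK window held neither set of letters. None of the 6 windows printed held both motifs, but windows not printed differed. CXCL10 held an interferon match 221 bases and an NF-kB match 176 bases before the start. In their 250 bases before the start, OAS1, RIGI and the first RSAD2 start held neither. Of the 15 largest rises 12 had a window, of which 9 held the interferon motif and 1 the NF-kB motif. Of the 15 largest falls 11 had a window, of which 0 held the interferon motif and 3 the NF-kB motif.

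Over the promoters of all RefSeq genes with a window, 3.57% of 35116 windows held the interferon motif and 0.965% the NF-kB motif. Of 9562 tested genes with a window, 395 (4.13%) held the interferon motif. Among the genes that passed the test described below, it was present in 25 of the 82 higher genes with a window (30.5%) and in 0 of the 35 lower ones. Within the antiviral effectors it was found in 16 of 19 that passed (84.2%) and in 9 of 15 that did not (60.0%). The NF-kB motif was found in 141 of the 9562 tested genes (1.48%), in 4 of the 82 higher genes (4.88%) and in 3 of the 35 lower ones (8.57%), the 3 being the chemokine genes printed above. A match describes the letters of these windows and does not show that a factor binds there.

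RECK, the gene named by the siRNA, was higher on the arrays labelled siRECK. The probe set that carries the gene in the fit, the brightest of 3, read 11.17 and 11.02 on the log2 scale on the arrays labelled siRECK, against 8.74 and 8.65 on those labelled siSCR. Both arrays labelled siRECK lay above both arrays labelled siSCR, opposite to what knockdown by this label would give. The log2 difference was 2.40 (SE 0.16, n = 2 and 2), a 5.29-fold higher signal, with an adjusted p = 6.65e-06 in limma. The other 2 RECK probe sets gave another picture. The second probe set, marked on the array as one that may cross-hybridise, read 6.11 and 6.16 on the arrays labelled siRECK, against 5.99 and 5.93 on those labelled siSCR (difference 0.17, adjusted p = 0.514 with every probe set tested alone). The third and dimmest read 3.51 and 3.32 on the arrays labelled siRECK, against 3.52 and 3.51 on those labelled siSCR (difference −0.10, adjusted p = 0.862). The sign thus differs between probe sets, and the mean of all 3 gave a difference of 0.82 (adjusted p = 0.000897). Which part of the transcript each probe set reads was not analysed here, so each direction below is that of the labels, and "under siRECK" means on the arrays so labelled. In Hs343T all 3 probe sets were higher under siRECK, the brightest by 5.48, the second by 0.46 (adjusted p = 0.00152) and the third by 0.27 (adjusted p = 0.195, not passing).

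**Figure D1:**
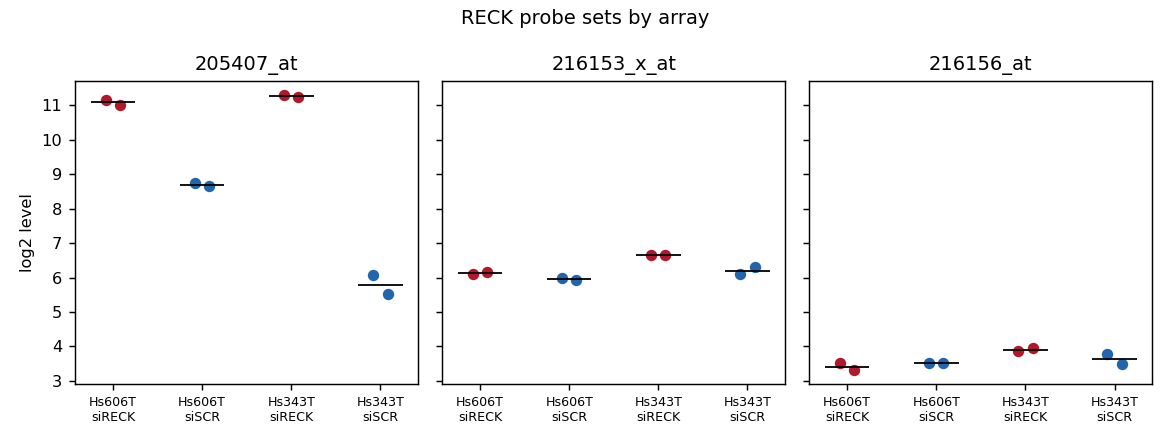
RECK signal by probe set on the 4 Hs606T arrays and, beside them, the 4 Hs343T arrays: the vertical axis is the log2 level, each point 1 array. Red marks arrays labelled siRECK and blue those labelled siSCR. On the brightest probe set the Hs606T arrays labelled siRECK (11.17 and 11.02) lie above those labelled siSCR (8.74 and 8.65). The Hs606T groups lie close together on the other 2 probe sets. In Hs343T the brightest probe set lies at 11.31 and 11.24 against 6.07 and 5.52.

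The 4 arrays were alike in level and in signs of RNA quality. Across all probe sets the correlation was 0.997 within the siRECK pair, 0.998 within the siSCR pair and 0.995 to 0.996 between the groups. The 3' minus 5' value of the GAPDH control, a sign of RNA integrity, was 0.26 on both arrays labelled siRECK, against 0.24 and 0.30 on those labelled siSCR, and that of ACTB was 1.26 and 1.09 against 1.16 and 1.33. Earlier results of these data had shown that 2 invasive-line arrays stand apart from their own replicates, namely array 1 of MDAMB231 with empty vector and array 1 of LM24175 with the RECK construct. Both enter the common spread, so counts that depend on them are given with and without them.

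Markers read before the comparison did not show an epithelial line. All 24 measured fibroblast and mesenchymal markers lay above the array median on both arrays of both groups, with a summed linear level of 196317.6 to 202702.2 under siRECK and 193578.4 to 195066.3 under siSCR. VIM, the mesenchymal intermediate filament, averaged 14.42 under siRECK and 14.44 under siSCR, and COL1A2, a collagen I chain, averaged 14.58 and 14.57. Of 22 mammary epithelial markers, 4 lay above the array median on both arrays labelled siRECK and 3 on both labelled siSCR, with sums of 3857.3 to 4090.3 and 3225.1 to 3259.4. The epithelial adhesion molecule EPCAM read 4.48 and 4.39 under siRECK, against 4.76 and 4.57 under siSCR. The keratin genes KRT18 and KRT19 were among those above the median, KRT19 at 10.91 and 11.01 under siRECK, against 10.70 and 10.65 under siSCR. No leukocyte marker (0 of 17 in both groups) and 1 of 13 endothelial markers in each group lay above the median, with sums of 515.0 to 554.9 under siRECK against 559.1 to 559.7 under siSCR for leukocytes, and 823.6 to 943.4 against 973.6 to 995.9 for endothelium. Of 15 smooth muscle and adipocyte markers 3 did so in each group, with sums of 3297.9 to 3624.2 under siRECK and 2321.2 to 2371.2 under siSCR. The line is therefore called Hs606T here without a cell type. In bulk RNA, fewer cells of a type and less RNA per cell cannot be told apart.

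Across 11963 genes, 143 passed an adjusted p of 0.05 in limma in Hs606T (1.2% of those tested), 97 higher (0.811%) and 46 lower (0.385%) on the arrays labelled siRECK. The median difference over all genes was −0.0049. Of the 143, 93 differed by at least 1.5-fold (66 higher, 27 lower) and 38 by at least 2-fold (27 higher, 11 lower). For all 143 genes the arrays of the 2 groups did not overlap. The same lack of overlap was seen for 48.8% of all genes tested. Fewer genes passed when any 1 Hs606T array was left out, a fit that leaves 1 array in that group. The count was 364 (228 higher, 136 lower, all 143 included) without those 2 deviating invasive-line arrays. With each array centred on its median 131 passed, 70 higher and 61 lower, of which 115 were among the 143.

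**Figure D2:**
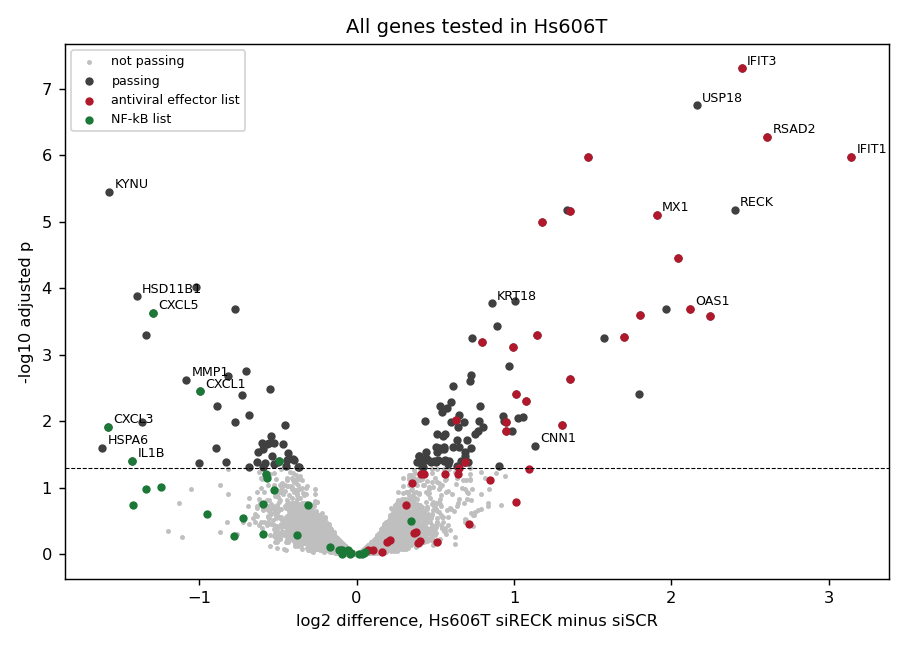
Every gene tested in Hs606T: the horizontal axis is the log2 difference, siRECK minus siSCR, and the vertical axis −log10 of limma's adjusted p, with the dashed line at an adjusted p of 0.05. Colours mark members of the gene lists whether or not they passed. The antiviral effectors lie to the right, up to IFIT1 at 3.14, and the NF-kB list mostly to the left, down to CXCL3 at −1.58.

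Antiviral effectors passed higher on the arrays labelled siRECK for 23 of the 44 that were measured, of 51 listed, and lower for 0, where 0.811% of all genes passed higher and 0.385% lower. The other 21 did not pass. The median difference of the 44 was 0.90, against −0.0049 over all genes, and all 44 values were above 0. The list was drawn up with earlier results of these data known, so its direction is not independent evidence. The number that passed higher was 17 without the first siRECK array (median 0.75) and 32 without those 2 deviating invasive-line arrays.

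The largest rise of any gene was that of IFIT1, whose protein binds viral RNA lacking the host cap methylation. It read 12.06 and 12.02 on the arrays labelled siRECK, against 8.94 and 8.86 on those labelled siSCR. The groups were more than 3 log2 units apart, with little spread within either pair (difference 3.14, adjusted p = 1.06e-06). IFIT3, a partner of IFIT1 in the same complex, read 9.92 and 10.04 on the arrays labelled siRECK, against 7.56 and 7.51 on those labelled siSCR (difference 2.45, SE 0.09, 5.45-fold, 95% interval 4.78 to 6.22, adjusted p = 4.92e-08). IFIT2, the third of the family, read 7.58 and 7.90, against 5.50 and 5.49 (difference 2.25, adjusted p = 2.61e-04). IFIT5, which binds RNA with a free triphosphate, rose less, by 0.80.

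RSAD2, or viperin, an enzyme that makes a chain-terminating nucleotide, read 7.46 and 7.60 under siRECK, against 4.72 and 5.13 under siSCR. Its siSCR arrays differed more from each other than its siRECK arrays, and both lay well below them (difference 2.61, adjusted p = 5.24e-07). OAS1, which makes the second messenger that activates RNase L, read 7.62 and 7.58 under siRECK, against 5.65 and 5.32 under siSCR (difference 2.12, adjusted p = 2.03e-04). Its relatives OASL (1.36) and OAS2 (1.31) also rose, and OAS3 (0.65, adjusted p = 0.051) did not pass. OAS2 no longer passed without the second siSCR array (adjusted p = 0.133), without the first siRECK array (0.114) or without the second (0.0598).

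MX1, a dynamin-like GTPase that blocks influenza virus, read 11.19 and 11.24 under siRECK, against 9.41 and 9.22 under siSCR (difference 1.91, 3.75-fold, adjusted p = 7.91e-06). MX2, its relative that acts on HIV-1, read 9.24 and 9.38, against 7.74 and 7.48 (difference 1.70, adjusted p = 5.39e-04). For both genes the 2 groups were separated by several times the spread within a group. RTP4, an interferon-induced zinc finger protein, read 6.46 and 6.69 under siRECK, against 4.75 and 4.31 under siSCR (difference 2.04). PLSCR1, a phospholipid scramblase with antiviral activity, read 10.60 and 10.67, against 9.17 and 9.16 (difference 1.47, adjusted p = 1.06e-06). IFI44L rose by 1.80, IFI44 by 1.18, HERC6 by 1.15, and SAMHD1, which depletes the nucleotides that reverse transcription needs, by 0.99.

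Some effectors passed by a smaller margin or not at all. TRIM5 (1.08), SAMD9 (1.02), GBP1 (0.95), IFI6 (0.95), TRIM14 (0.69) and TRIM21 (0.63) passed with all arrays and lost the call when 1 Hs606T array was left out, and the probe sets of TRIM14 differed in sign. XAF1 (1.10, adjusted p = 0.0513), IFITM1 (1.01, adjusted p = 0.165) and IFI27 (0.85, adjusted p = 0.0758) had differences as large and did not pass. ISG20 (0.39), an exonuclease of RNA, and BST2 (0.19), the tetherin that holds budding virions, did not pass either.

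**Figure D3:**
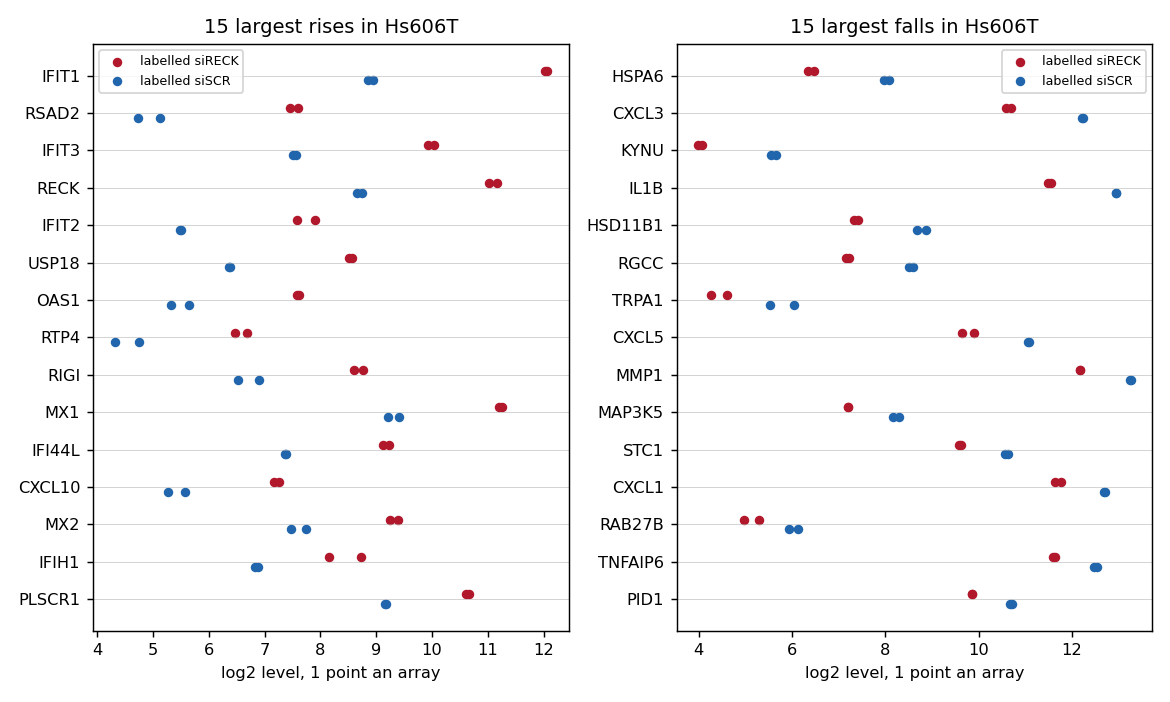
The 15 largest rises and the 15 largest falls in Hs606T by array: the horizontal axis is the log2 level, each point 1 array, red for siRECK and blue for siSCR. IFIT1 lies at 12.06 and 12.02 under siRECK against 8.94 and 8.86 under siSCR, and in every gene drawn the arrays of the 2 groups do not overlap.

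Among sensors and signalling proteins 6 of 19 measured members rose and 0 fell, against 0.811% and 0.385% of all genes (median 0.20). RIGI, the sensor of RNA ends with a triphosphate, read 8.76 and 8.61 under siRECK, against 6.91 and 6.52 under siSCR (difference 1.97, 3.91-fold, adjusted p = 2.03e-04). IFIH1, or MDA5, the sensor of long double-stranded RNA, read 8.72 and 8.15, against 6.88 and 6.84 (difference 1.57, adjusted p = 5.57e-04). Both sensors were higher on each siRECK array than on each siSCR array, with IFIH1 further apart between its siRECK arrays. EIF2AK2, the kinase PKR that halts translation on double-stranded RNA, rose by 0.73 (adjusted p = 5.57e-04). MYD88 (0.57), IFI16 (0.55) and TLR3 (0.52) rose less, and each lost its call when 1 array was left out. DHX58, the third RIG-I-like receptor, stood at −0.26 and did not pass. The core RNA interference genes, among them DICER1 (−0.09), DROSHA (0.17) and AGO1 (0.13), held 0 passing members of 10 (median 0.05). Of all genes 1.2% passed.

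The genes for the interferons themselves did not pass. IFNB1, interferon beta, read 4.21 and 4.33 on the arrays labelled siRECK, against 3.87 and 4.15 on those labelled siSCR (difference 0.26, adjusted p = 0.406). The groups did not overlap, but the gap between them was smaller than the spread within the siSCR pair. Of 19 measured interferons and receptors 0 passed (median 0.04), where 1.2% of all genes passed. IFNAR1 stood at −0.22 and IFNAR2 at −0.27, the 2 chains of the type I receptor. Among the factors downstream 4 of 15 rose, against 0.811% of all genes, and 0 fell. IRF7, which amplifies interferon transcription, rose by 1.03 (adjusted p = 0.00903) and IRF9, a DNA-binding subunit of the interferon-activated complex, by 0.79 (adjusted p = 0.00577). SP110 rose by 0.70 and NMI by 0.61, and all 4 lost the call when 1 Hs606T array was left out. IRF1 (0.45, adjusted p = 0.193) and IRF3 (−0.22) did not pass.

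In the ISG15 group 3 of 10 measured genes rose, against 0.811% of all genes, and 0 fell (median 0.32). ISG15, a ubiquitin-like protein attached to others during infection, read 11.98 and 11.94 under siRECK, against 10.64 and 10.61 under siSCR (difference 1.34, adjusted p = 6.65e-06). HERC5, the ligase that attaches it, read 6.43 and 6.29, against 4.93 and 5.08 (difference 1.36, adjusted p = 6.79e-06). USP18, which removes ISG15 and damps signalling at the interferon receptor, read 8.51 and 8.56, against 6.39 and 6.35 (difference 2.16, 4.47-fold, 95% interval 3.89 to 5.13, adjusted p = 1.78e-07). The modifier, its ligase and its protease were therefore each separated between the groups by far more than within them. UBE2L6, the conjugating enzyme (0.35), and SOCS1, a feedback inhibitor (0.40), did not pass.

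Antigen presentation and T cell chemokines did not share this pattern gene for gene. Of 19 MHC class I and processing genes 0 passed (median −0.03), where 1.2% of all genes passed. HLA-B stood at −0.19 and B2M, the light chain of class I, at −0.01. The peptide transporter subunit TAP1 stood at 0.38 (adjusted p = 0.114 in limma) and the immunoproteasome subunit PSMB8 at 0.39 (adjusted p = 0.0758). Of 12 chemokines and related ligands 1 rose, against 0.811% of all genes. The 1 was CXCL10, which attracts activated T cells. It read 7.26 and 7.17 under siRECK, against 5.58 and 5.27 under siSCR (difference 1.79, adjusted p = 0.00381), and lost the call without the second siSCR array (adjusted p = 0.0535) or the first siRECK array (0.0561). Its relative CXCL11 (0.63, adjusted p = 0.685), the death ligand TNFSF10 (0.55) and CCL5 (−0.42) did not pass.

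**Figure D4:**
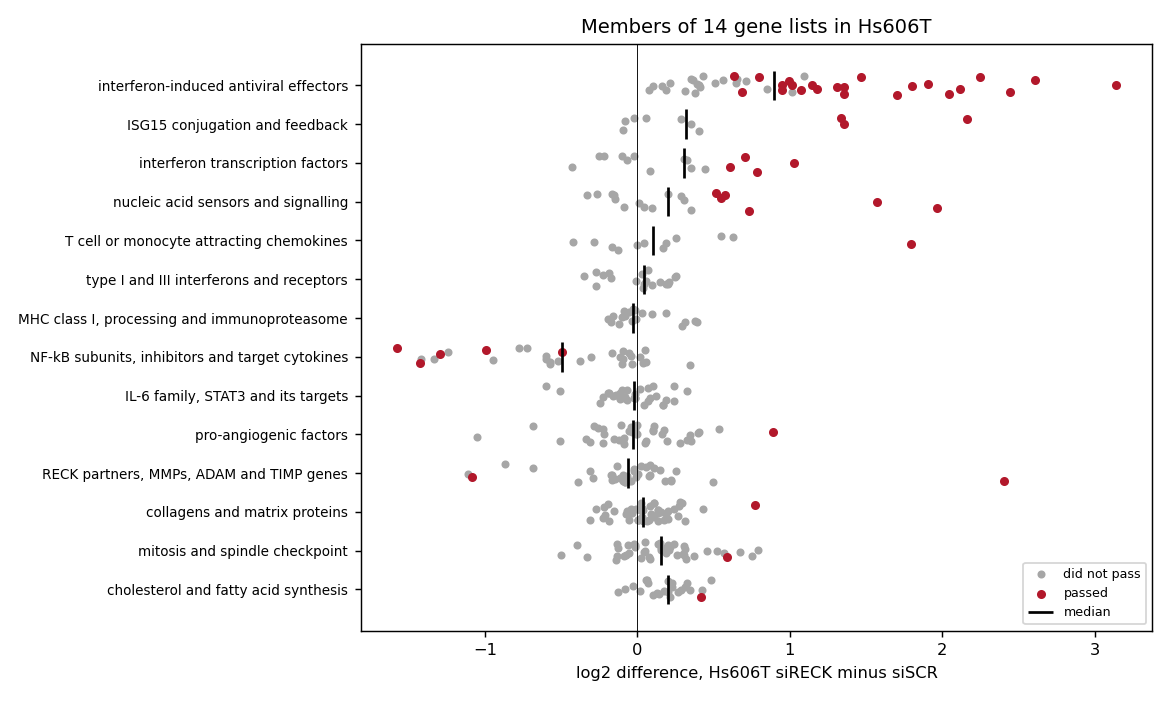
Gene lists in Hs606T: each point is 1 gene, the horizontal axis its log2 difference, siRECK minus siSCR, red where it passed in limma and grey where it did not, with a black bar at the median of the list. The antiviral effectors have a median of 0.90, the NF-kB list −0.49 and all other lists lie nearer 0.

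NF-kB target cytokines made up the largest group among the listed genes that fell. Of 31 measured subunits, inhibitors and targets 5 passed lower, against 0.385% of all genes, and 0 higher, with a median of −0.49 and 26 values below 0. The 5 were CXCL3, IL1B, CXCL5, CXCL1 and TNFAIP3. The count was 2 without any 1 of the 4 Hs606T arrays and 14 without those 2 deviating invasive-line arrays. The subunits RELA (0.01) and NFKB1 (−0.05) did not pass, nor did NFKBIA, the inhibitor that NF-kB itself induces (−0.57, adjusted p = 0.0616). Those 3 and TNFAIP3 lie outside the rule for named genes and were chosen after their values were seen.

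CXCL3, a neutrophil-attracting chemokine, read 10.69 and 10.59 on the arrays labelled siRECK, against 12.21 and 12.23 on those labelled siSCR (difference −1.58, SE 0.26, 2.99-fold lower, adjusted p = 0.0120). CXCL5, of the same family, read 9.90 and 9.64, against 11.08 and 11.05 (difference −1.29, 2.45-fold lower, 95% interval 2.02 to 2.97, adjusted p = 2.34e-04). CXCL1 read 11.76 and 11.64, against 12.68 and 12.70 (difference −0.99, adjusted p = 0.00354). All 3 chemokines were lower on both arrays labelled siRECK, and CXCL1 and CXCL5 kept their call without any single Hs606T array, while CXCL3 did not (adjusted p from 0.0717 to 0.101). CXCL8, the best known of this family, read 14.24 and 13.73 under siRECK, against 14.00 and 14.05 under siSCR, and did not pass (−0.04, adjusted p = 0.98).

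IL1B, the cytokine interleukin-1 beta, read 11.49 and 11.54 under siRECK, against 12.93 and 12.95 under siSCR (difference −1.43, adjusted p = 0.0395). The 4 arrays of IL1B are tightly grouped, but its common spread is wide, and the call was lost without any 1 of them (adjusted p from 0.125 to 0.236). TNFAIP3, or A20, the deubiquitinase that ends NF-kB signalling, fell by 0.49 (adjusted p = 0.0395). TNFAIP6, a hyaluronan-binding protein induced by inflammatory cytokines, fell by 0.88 and lost the call without the first siSCR array (adjusted p = 0.0624) or the first siRECK array (0.0756).

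The remaining large falls had varied functions. KYNU, kynureninase of the tryptophan pathway, read 3.99 and 4.06 under siRECK, against 5.54 and 5.65 under siSCR (difference −1.57, SE 0.10, 2.97-fold lower, adjusted p = 3.57e-06). Its level under siRECK lay below the lower quartile of all probe sets on those arrays (4.54 and 4.58). HSPA6, a stress-inducible HSP70, read 6.46 and 6.35, against 8.07 and 7.97 (difference −1.62, adjusted p = 0.0248), the largest fall of any gene, and it lost the call without any 1 Hs606T array. HSD11B1, which regenerates active cortisol, read 7.42 and 7.32, against 8.67 and 8.86 (difference −1.40, adjusted p = 1.32e-04). MAP3K5, the stress kinase ASK1, read 7.20 on both siRECK arrays, against 8.16 and 8.28 (difference −1.02, adjusted p = 9.51e-05). The cation channel TRPA1 fell by 1.34 and kept its call under every array left out, whereas RGCC (−1.37) and STC1, a secreted glycoprotein hormone, did not. RAB27B (−0.90) and PID1 (−0.83) completed the 15 largest falls. PID1 read 9.86 on both siRECK arrays, against 10.71 and 10.67, and lost its call without any 1 Hs606T array. RAB27B lost its call without some of them. Each such fit leaves 1 array in a group, so a lost call does not show that a single array carried the difference.

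In the list of MMP, ADAM and TIMP genes and RECK partners, 1 protease passed lower. MMP1, interstitial collagenase, read 12.17 and 12.17 on the arrays labelled siRECK, against 13.25 and 13.26 on those labelled siSCR. The siRECK arrays were equal to 2 decimals and both lay below the siSCR arrays (difference −1.08, SE 0.14, 2.12-fold lower, adjusted p = 0.00237). Of 38 measured MMP, ADAM and TIMP genes and RECK partners, RECK itself was the 1 that passed higher and MMP1 the 1 that passed lower. Of all genes 0.811% passed higher and 0.385% lower. The list median was −0.06. Its lowest difference, −1.11, belonged to another member, which did not pass. MMP2 (−0.08), MMP9 (−0.08) and MMP14 (−0.39, adjusted p = 0.232), the metalloproteinases RECK is best known to inhibit, did not pass.

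The series title names STAT3 and neoangiogenesis, so those genes were read regardless of their values. STAT3 differed by 0.32 (adjusted p = 0.157), IL6 by −0.60 (adjusted p = 0.488) and IL6ST, the shared receptor chain, by −0.12. Of 33 IL-6 family and STAT3 target genes 0 passed (median −0.02), which is near the 1.2% of all genes that passed in either direction. VEGFA, the main endothelial growth factor, read 12.36 and 12.10 under siRECK, against 12.25 and 12.28 under siSCR, and did not pass (−0.03, adjusted p = 0.982). PLAU, urokinase, stood at −1.05 without passing (adjusted p = 0.103). Of 40 pro-angiogenic factors 1 rose, against 0.811% of all genes. It was FGF1, which read 9.58 and 9.51 under siRECK against 8.72 and 8.59 under siSCR (difference 0.89, adjusted p = 3.65e-04 in limma). Of 14 anti-angiogenic factors 0 passed (median −0.09), where 1.2% of all genes passed. Counts this small are near those shares.

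The other lists held between 0 and 3 passing genes each, where 0.811% of all genes passed higher and 0.385% lower. Of 45 mitotic genes 1 rose, NUSAP1 (0.59), with a list median of 0.16, and of 42 replication genes 1 rose, TK1 (0.61). In the p53 list 3 of 22 rose, MDM2 (0.50), which degrades p53, and the stress genes GADD45A (0.53) and GADD45B (0.51). The probe sets of NUSAP1, MDM2 and GADD45B differed in sign, so their values are those of the brightest probe set. CNN1, a smooth muscle calponin, rose by 1.13 (adjusted p = 0.0234). CNN1 is itself one of the 15 smooth muscle and adipocyte markers, whose summed level was higher under siRECK while their median log2 level was 5.43 under siRECK and 5.54 under siSCR. KRT18, a simple-epithelial keratin, rose by 0.86 (adjusted p = 1.67e-04), ASPN, a small leucine-rich matrix protein, by 0.78, and EBP, an enzyme of cholesterol synthesis, by 0.42. SLC7A11, the cystine transporter, fell by 0.56, MT1F, a metallothionein, by 0.37, THBD, thrombomodulin, by 0.60 and the immediate early gene IER3 by 0.63. All of these except KRT18 lost the call when 1 Hs606T array was left out. The integrin, hypoxia, death receptor and fibroblast lists held 0 passing members of 26, 29, 21 and 24.

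In Hs343T the same pair of labels gave a far wider change, 3511 genes (29.3% of those tested), 1432 higher (12%) and 2079 lower (17.4%). Of the 97 genes higher in Hs606T, 57 were also higher in Hs343T, which is 58.8% of the Hs606T list and 3.98% of the Hs343T list. Another 11 of the 97 were lower in Hs343T and 29 did not pass there. Of the 46 lower genes, 19 were also lower in Hs343T (41.3% of the Hs606T list, 0.914% of the Hs343T list), 9 were higher and 18 did not pass. Across all genes the log2 differences of the 2 lines had a Pearson r of 0.26, a description over genes that are not independent.

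Interferon-related genes made up 36 of the 57 genes that were higher in both lines, and their sizes differed. All 36 genes of the interferon-related lists that passed higher in Hs606T also passed higher in Hs343T, with a median difference of 1.24 in Hs606T and 5.62 in Hs343T. The difference between the responses, Hs606T minus Hs343T, was tested for each gene, and 2436 genes passed (20.4%), 1393 higher (11.6%) and 1043 lower (8.72%). Of the 44 antiviral effectors 42 had a smaller response in Hs606T and 0 a larger one. For IFIT1 the response was smaller by 4.80 on the log2 scale (adjusted p = 4.81e-08 in limma), and for RSAD2 by 6.42 (adjusted p = 5.26e-10). RSAD2 read 4.32 and 4.11 in Hs343T under siSCR, below the lower quartile of all probe sets on those arrays (4.68 and 4.66). Such a level may not stand above background, so the size of the RSAD2 difference is uncertain.

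Both ends of the scale differed between the lines. Under the scrambled siRNA, 4408 genes differed between Hs606T and Hs343T (36.8%), 18.4% of all genes being higher and 18.5% lower in Hs606T. Of the 44 effectors 32 were higher and 2 lower in Hs606T (median 0.88). MX1 read 9.41 and 9.22 in Hs606T under siSCR, against 5.20 and 4.89 in Hs343T, a difference of 4.27. On the arrays labelled siRECK 5410 genes differed (45.2%), 23.9% higher and 21.3% lower, and 42 of the 44 effectors were lower in Hs606T and 0 higher (median −2.22). MX1 there read 11.19 and 11.24 in Hs606T, against 13.18 and 13.22 in Hs343T. These comparisons share their arrays with the responses, so their values are set side by side only.

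**Figure D5:**
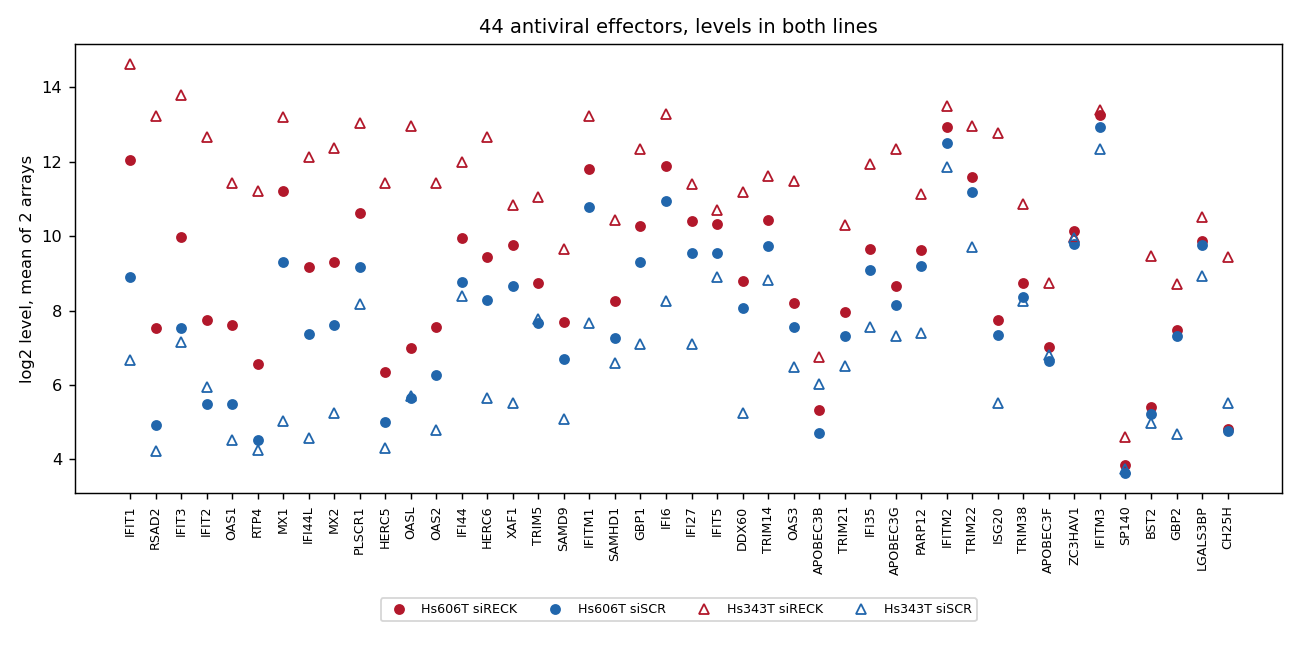
Levels of the 44 measured antiviral effectors in both lines, ordered by their difference in Hs606T: the vertical axis is the log2 level, the mean of 2 arrays, with filled circles for Hs606T, open triangles for Hs343T, red for siRECK and blue for siSCR. The Hs343T siRECK triangle lies highest for every gene but ZC3HAV1, and for 32 genes the Hs606T siSCR circle is higher than the Hs343T siSCR triangle with a passing test.

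Interferon beta was among the genes whose responses differed most between the lines. IFNB1 read 4.21 and 4.33 in Hs606T under siRECK, while it read 12.80 and 12.73 in Hs343T under siRECK against 4.30 and 4.22 under siSCR. All these readings except the Hs343T siRECK pair lay below the lower quartile of all probe sets on their array, where a level may not stand above background. The fitted response was smaller in Hs606T by 8.25 (adjusted p = 3.81e-11), and its size is uncertain for that reason. CXCL11 read 4.57 and 4.34 in Hs606T under siRECK, against 12.86 and 12.88 in Hs343T. For HLA-B the Hs343T difference was 1.70 where Hs606T stood at −0.19 (adjusted p of the difference between them 0.00199), and 16 of the 19 MHC class I genes passed higher in Hs343T.

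The NF-kB list differed in direction. In Hs343T 15 of its 31 members were higher and 3 lower (median 0.53), and 17 had a lower response in Hs606T than in Hs343T. TNFAIP3 was 0.49 lower in Hs606T and 2.57 higher in Hs343T, and IL6 (1.12 in Hs343T) gave a response lower by 1.71 in Hs606T (adjusted p = 0.0121). IL1B fell in both lines (−1.43 and −1.01), and the difference between them did not pass (−0.41, adjusted p = 0.566). CXCL5 (0.04) and CXCL1 (−0.09) did not pass in Hs343T, and their responses were lower in Hs606T by 1.33 and 0.91, both passing. CXCL3 stood at −0.59 in Hs343T without passing (adjusted p = 0.122). Its difference between the lines did not pass either (−0.99, adjusted p = 0.0851). Of 45 mitotic genes 35 were lower in Hs343T (median −1.53), against 17.4% of all genes. In Hs606T 0 of them were lower, which is near the 0.385% of all genes that passed lower there. Under the scrambled siRNA 44 of the 45 were already lower in Hs606T than in Hs343T (median −2.30), against 18.5% of all genes.

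Several further genes moved differently in the 2 lines by the test of the difference. KYNU is in the list of tryptophan and vitamin metabolism induced by interferon. Of its 9 measured members KYNU was the 1 lower in Hs606T, against 0.385% of all genes, and 0 were higher. In Hs343T 6 members of that list were higher, against 12% of all genes, and 0 lower. KYNU read 3.99 and 4.06 in Hs606T under siRECK, while in Hs343T it read 10.28 and 10.42 under siRECK against 9.67 and 9.54 under siSCR. It thus fell in Hs606T and rose by 0.74 in Hs343T (adjusted p of the difference 1.85e-07). TRPA1 likewise fell in Hs606T and rose by 2.52 in Hs343T, and MAP3K5 fell in Hs606T and rose by 0.62 in Hs343T. KRT18 rose in Hs606T and fell by 1.08 in Hs343T (adjusted p of the difference 1.97e-07). CNN1 stood at 0.01 in Hs343T without passing, and its response was higher in Hs606T by 1.12 (adjusted p = 0.0178). MMP1 stood at −0.30 in Hs343T (adjusted p = 0.139), and its response was lower in Hs606T by 0.78 (adjusted p = 0.0161). FGF1 rose in both lines, by 2.51 in Hs343T, and HSD11B1 and RGCC fell in both, by 0.56 and 2.54 in Hs343T.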

How the data were processed

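RNA of 16 cell line samples was hybridised to Affymetrix U133 2.0 arrays. The deposited table holds log2 values of 22277 probe sets, which the authors made in Partek from the scanner files, per the submitters' processing notes; the log base is inferred from the range, and for version, summary method and scaling no source used here gives an answer. Control probe sets (62) were left out. Of the rest, the platform annotation gave 19064 probe sets 1 gene symbol and 1043 several. Counted over all probe sets, controls included, 2164 had none. Each of 11963 genes is carried by whichever of its probe sets was brightest on average. No further normalization was applied.

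One limma fit (limma 3.58.1, R 4.3.3) of 8 group means over 16 arrays gave all contrasts, with 8 residual and 3.72 prior degrees of freedom, 2-sided tests and Benjamini-Hochberg adjustment over all genes; a gene passed at an adjusted p under 0.05. The number of arrays limits precision. The fit was tested on simulated data. Members and gene lists were chosen with earlier results of these data known. Genes named are RECK, the 15 largest rises and falls and the 8 largest differences between the responses each way. All members of the 7 interferon-related lists and of the RNA interference list are included. Every other list gave up to 4 passing members each way (where none passed, the 2 highest in level). A further 10 genes are of the STAT3 and protease theme. EPCAM and KRT19, read as markers, lie outside this rule, and others outside it are marked. A marker counted as present above the array's median over genes. Promoters are from RefSeq (GRCh38.p14). Alternatives were other scalings, probe set rules, filters and array sets, a replicate block, and leaving out each array.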

Additional observations from a re-analysis of the deposited data

Results flagged for a closer look

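Every result here was picked out because the siRECK minus siSCR response differed between Hs606T and Hs343T by limma's test of that difference, with an adjusted p under 0.05 over all genes. Values are Hs606T minus Hs343T on the log2 scale, and 2436 genes passed in all. In Hs343T under siSCR, at least RSAD2, RTP4, IFIH1, CXCL10 and IFNB1 lay below the lower quartile of all probe sets on both arrays. The sizes of their differences are therefore uncertain. The response of RECK (−3.07) was smaller in Hs606T. So were the responses of the antiviral effectors IFIT1 (−4.80), RSAD2 (−6.42), IFIT3 (−4.17), IFIT2 (−4.49), OAS1 (−4.80), RTP4 (−4.90), MX1 (−6.25), MX2 (−5.40), IFI44L (−5.76), PLSCR1 (−3.39), ISG20 (−6.86), of the sensors and the ISG15 protease RIGI (−4.36), IFIH1 (−6.12), USP18 (−3.85), and of the secreted or interferon-induced products IFNB1 (−8.25), CXCL10 (−6.77), CXCL11 (−8.52), CCL5 (−6.59), TNFSF10 (−6.75), IDO1 (−6.29). Lower responses in Hs606T were also found for KYNU (−2.31), HSD11B1 (−0.84), TRPA1 (−3.85), CXCL5 (−1.33), MMP1 (−0.78), MAP3K5 (−1.65), CXCL1 (−0.91), RAB27B (−2.52), TNFAIP6 (−1.31). Higher ones were found for RGCC (1.18), ZMAT3 (3.43), DLGAP5 (3.19), CERK (3.18), TOP2A (2.87), DLEU1 (2.77), NT5DC2 (2.72), ASPM (2.71), APPL2 (2.69), where RGCC fell less in Hs606T than in Hs343T and the mitotic genes DLGAP5, TOP2A and ASPM were lower in Hs343T without passing in Hs606T. ZMAT3, CERK, DLEU1, NT5DC2 and APPL2 did not pass in Hs606T either. Of the genes read for the STAT3 theme, STAT3 (−0.64), IL6 (−1.71) had lower responses and PLAU (2.09) a higher one. None of these 3 passed in Hs606T. The higher response of PLAU is not a rise, since its difference was below 0 in Hs606T (−1.05) and lower still in Hs343T.

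By list, members with a lower response in Hs606T numbered 42 of 44 antiviral effectors, 14 of 19 sensors, 10 of 15 transcription factors, 7 of 10 ISG15 genes, 15 of 19 MHC class I genes, 10 of 12 chemokines, 17 of 31 NF-kB genes, 2 of 19 interferons and receptors and 1 of 10 RNA interference genes, against 8.72% of all genes tested. The shares of the last 2 lists are near that background, and 3 of the 10 RNA interference genes had a higher response in Hs606T, against 11.6% of all genes.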

How the results depend on the processing

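In Hs606T, where 143 genes passed (97 higher, 46 lower), the count was 130 after quantile normalization, 131 with each array centred on its median (70 higher, 61 lower), 138 with the mean of all probe sets, 155 with every probe set tested alone, 161 without the dimmest genes, 198 with trend and robust moderation, 203 on the 8 Hs343T and Hs606T arrays, 65 on the 4 Hs606T arrays alone (46 of them among the 143), 93 at 1.5-fold or more, and 46 to 101 without 1 Hs606T array. Without the 2 deviating invasive-line arrays it was 364 (228 higher, 136 lower). At 1.5-fold or more, 1808 genes passed in Hs343T, 2146 between the lines under siSCR and 2999 under siRECK. With the replicate number within each line as a block 68 passed, 65 of them among the 143; same-numbered arrays did not deviate together (correlation of deviations 0.01 in Hs606T, −0.05 in Hs343T), so the numbers give no pairing. The cause of these shifts was not tested. RECK passed in every setting, at 2.33 to 2.47 except 0.82 with the mean of its probe sets. Of 66 named genes that passed, 31 kept the call without each single Hs606T array and 35 lost it at least once, and 0 called values changed sign. With 2 arrays a group, a difference that missed the threshold is not shown to be absent.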

Other observations

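Outside the lists, and chosen after their values were seen, several further genes passed in both lines in the same direction on the arrays labelled siRECK. GMPR, which converts GMP to IMP, read 6.19 and 6.13 in Hs606T under siRECK against 5.33 and 5.50 under siSCR (difference 0.75, adjusted p = 0.0156 in limma), and differed by 6.29 in Hs343T. The apolipoprotein L gene APOL2 rose by 0.60 in Hs606T and 3.22 in Hs343T, and the mitochondrial iron carrier SLC25A28 by 0.44 and 2.62. THEMIS2 rose by 0.56 and 3.46, the phospholipid flippase ATP10A by 0.43 and 2.29, and N4BP1, a ribonuclease, by 0.39 and 1.76. The probe sets of N4BP1 differed in sign in Hs606T.

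A few genes of the actin cytoskeleton and of membrane signalling, also chosen after their values were seen, rose in Hs606T. The LIM domain genes CSRP2 (0.97, adjusted p = 0.00149), LIMCH1 (0.93, adjusted p = 0.00829) and LMCD1 (0.73, adjusted p = 0.00199) each passed, and each response was higher than in Hs343T by the test of the difference (0.61, 0.86 and 0.55). The cation channel TRPC6 rose by 1.01 and GFRA1, a receptor of GDNF family ligands, by 1.06, while the oxytocin receptor OXTR rose by 0.80 in Hs606T and 0.58 in Hs343T. IL33, an alarmin of the interleukin-1 family, read 10.14 and 9.85 under siRECK against 10.71 and 10.73 under siSCR in Hs606T (difference −0.73, adjusted p = 0.00402) and rose by 0.29 in Hs343T.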
